A study of Mus musculus with 9 samples.

Results

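Complement is a set of plasma and membrane proteins that tags damaged cells and recruits leukocytes. The C1q complex, assembled from the products of C1qa, C1qb and C1qc, recognises its targets and starts the classical pathway. C4b and C3 are cleaved and deposited on surfaces, the small fragments of C3 and C5 act on the receptors C3ar1 and C5ar1, and C7 is a subunit of the terminal membrane attack complex. Cd55, also called decay-accelerating factor, is a membrane protein that dissociates the convertases which cleave C3. In tissues, C1q is a known product of macrophages, and C3, C4 and C7 are made outside the liver as well, fibroblasts being one of the known sources. The 9 genes described here, C1qa, C1qb, C1qc, C3, C4b, C7, C3ar1, C5ar1 and Cd55, were taken by symbol from the 32285 genes of the deposited matrices, and all 9 were found. Their choice did not use a measured contrast of these libraries, but it was made with earlier results of the data known.

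The data were single-nucleus RNA counts, in unique molecular identifiers (UMIs), from the hearts of wild-type male mice aged 9 to 10 weeks. The strain was not given. Ischemia-reperfusion (I/R) injury was made by closing the left anterior descending (LAD) coronary artery of the heart during 45 min and reopening it for 24 h, and sham mice had their chests opened without occlusion. NS-Sham mice had sham surgery with saline, NS-I/R mice had I/R with saline, and Enpa-I/R mice had I/R with enpatoran, which blocks the RNA-sensing receptor TLR7, in 2 doses of 5 mg/kg into the peritoneum. The first dose came 1 h before ischemia. The sources give different times for the second. Each group had 3 libraries, and a sham group with enpatoran was not analysed here, so the effect of the drug without injury cannot be told apart from its effect after injury. Nothing in the labels says whether each library came from a single heart, so p-values measure the spread between these libraries.

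Libraries held 19651794 to 38970153 UMIs, and 41979 of 56766 barcodes were kept, 3160 to 6471 per library, with medians of 2365 to 3264 UMIs per nucleus. Pairs of libraries shared 5 to 20 barcodes. Of 27 clusters, 26 were named by marker genes, and the unnamed one, led by heat-shock genes, held 408 nuclei from NS-I/R hearts, 10 from Enpa-I/R hearts and 0 from NS-Sham hearts. The unnamed cluster was uneven over libraries, at 5.81%, 1.83% and 0.65% of the nuclei of NS-I/R replicates 1, 2 and 3. Fibroblast-like and macrophage-like nuclei carried all 7 and all 8 of their markers in every group, where any UMI in the group's sum counted. By that count all 7 fibroblast markers were also present in cardiomyocyte-like, endothelial-like and pericyte-like nuclei, so presence alone does not set a class apart. Their summed level was 2298 to 4290 CPM in fibroblast-like libraries and 175 to 264 CPM in endothelial-like libraries. Neutrophil-like nuclei numbered 6, 1352 and 323 in the 3 groups, so neutrophils were compared between the I/R groups only. Levels are CPM, the UMIs of a gene scaled to 1000000 UMIs of the class, scaled by TMM in tested classes, and one UMI in a nucleus does not separate its own RNA from RNA released during isolation. A gene's level in a class therefore mixes RNA per nucleus and the makeup of the class, and over all nuclei, fewer cells of a type and less RNA per cell cannot be told apart.

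Sequence upstream of the transcription start was examined because of 2 patterns in the class sums. The C1q subunit genes moved together in macrophage-like nuclei. C3 and C7 moved in opposite directions in fibroblast-like nuclei as a whole class, though not within each of its clusters. Promoters came from the RefSeq table of build GRCm38.p6, in which 7 of the 9 genes were found, C1qa and C4b being the others. The submitters' notes name GRCm39, so these positions belong to the table's build and not to the counts. C1qb, C1qc and C1qa lie side by side on chromosome 4, all on the minus strand. The 250 bases before each start follow, 5′ to 3′ on the gene's strand, at chr4:136886201-136886450 for C1qb, chr4:136892915-136893164 for C1qc, chr17:57228137-57228386 for C3 and chr15:5063774-5064023 for C7, with matches to the searched motifs in capitals.
C1qb: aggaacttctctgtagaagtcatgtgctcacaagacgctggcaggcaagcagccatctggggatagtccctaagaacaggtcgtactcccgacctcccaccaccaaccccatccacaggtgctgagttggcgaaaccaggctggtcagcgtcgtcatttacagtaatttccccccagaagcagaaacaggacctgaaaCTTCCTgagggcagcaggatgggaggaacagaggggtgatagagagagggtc
C1qc: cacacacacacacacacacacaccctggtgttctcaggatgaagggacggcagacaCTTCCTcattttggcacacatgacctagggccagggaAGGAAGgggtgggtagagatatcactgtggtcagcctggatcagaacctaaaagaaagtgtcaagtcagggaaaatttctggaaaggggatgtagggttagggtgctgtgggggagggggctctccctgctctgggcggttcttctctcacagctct
C3: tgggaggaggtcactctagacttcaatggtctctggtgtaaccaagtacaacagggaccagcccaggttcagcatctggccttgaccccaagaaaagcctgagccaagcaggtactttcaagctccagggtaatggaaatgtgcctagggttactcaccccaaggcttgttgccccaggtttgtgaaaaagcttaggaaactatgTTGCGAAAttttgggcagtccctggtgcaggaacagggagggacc
C7: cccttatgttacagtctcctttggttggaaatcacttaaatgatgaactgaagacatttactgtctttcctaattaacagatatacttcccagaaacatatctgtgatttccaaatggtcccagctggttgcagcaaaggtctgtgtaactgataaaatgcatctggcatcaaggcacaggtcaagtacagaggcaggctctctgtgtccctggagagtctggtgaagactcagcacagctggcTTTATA

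Of the 5 motifs searched on both strands, the ETS core AGGAAG, the sequence around which ETS factors such as the macrophage factor PU.1 bind, matched once in C1qb, 52 to 47 bases before the start. It matched at 2 places in C1qc and at 3 in C5ar1, of which 2 share bases. The core stood in 29.5% of all 32851 promoters in the table, so a match is common. The C/EBP-type sequence TTGCNNAA matched once in C3, as TTGCGAAA 45 to 38 bases before the start, and in 9.56% of all promoters. TATAAA matched on the reverse strand in the last 6 bases of C7 and on the forward strand in C3ar1, and in 12.4% of all promoters. C3ar1 also held the AP-1-type sequence TGANTCA, found in 6.75% of promoters, and an NF-kB-type motif, found in 1.41%. Cd55 held none of the 5. These are matches of letters in the window and no factor was measured at them.

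The members fell into classes that the clustering did not use, since the complement genes were kept out of it. Macrophage-like nuclei held 77.9%, 82.7% and 83.0% of all C1qa, C1qb and C1qc UMIs in NS-Sham hearts, and 86.0% and 87.3% of those of C3ar1 and C5ar1. Fibroblast-like nuclei held 94.7% of C7 UMIs, 74.7% of Cd55 UMIs and 67.9% of C3 UMIs. C4b was spread, with 48.1% in fibroblast-like and 19.6% in macrophage-like nuclei. After I/R with saline, neutrophil-like nuclei held 30.1% of C5ar1 UMIs and 15.8% of C3 UMIs. These nuclei also carried endothelial RNA. The 7 endothelial markers summed to 2413, 2221 and 4166 CPM in NS-I/R libraries there, against 7405 to 8180 CPM in endothelial-like nuclei. The part of RNA from other cells in the neutrophil-like values was not tested. Mesothelial-like nuclei, 79 in NS-Sham hearts, still gave 16.2% of C3 UMIs.

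**Figure D1:**
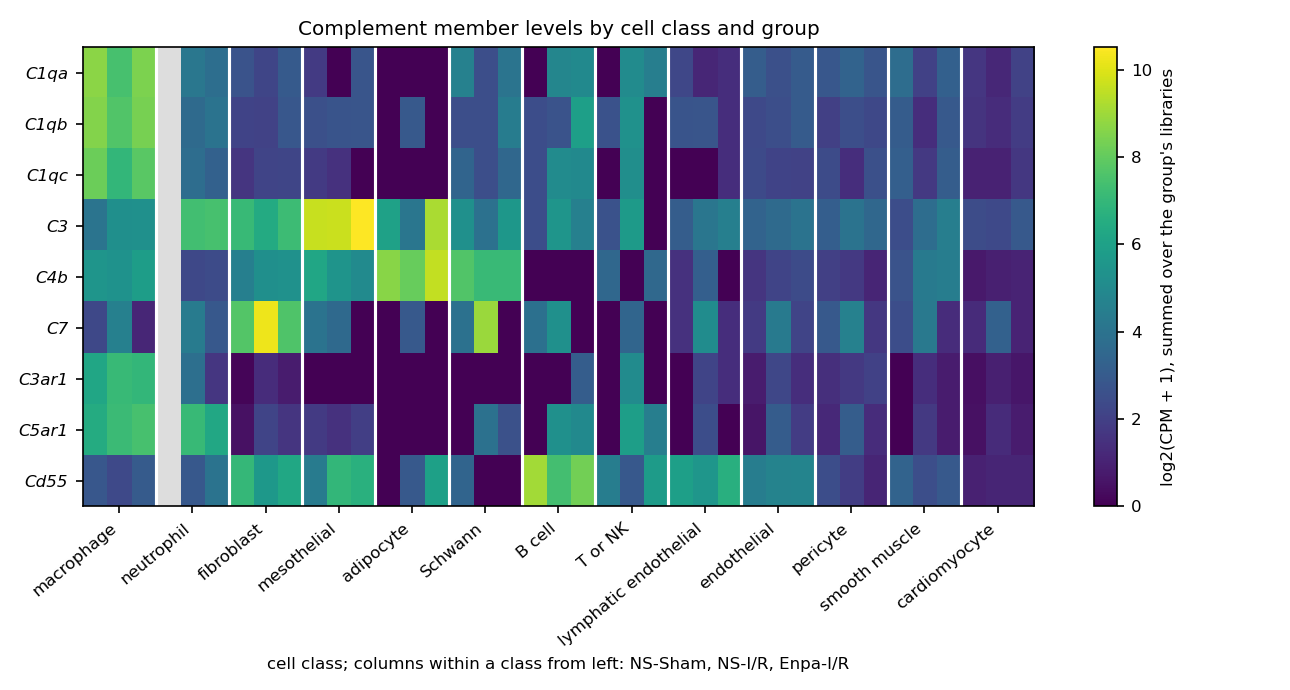
Level of each of the 9 genes (rows) by cell class and group (columns; within a class from left NS-Sham, NS-I/R, Enpa-I/R), as log2(CPM + 1) of the UMIs summed over each group's libraries; grey marks the 6 NS-Sham neutrophil-like nuclei, which were left out. Colours compare classes within a row: C1q is brightest in macrophage-like nuclei, C7 in fibroblast-like nuclei, C3 in mesothelial-like nuclei and Cd55 in B cell-like nuclei.

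Counts of UMIs summed per library were tested in 7 classes that had all 9 libraries, with edgeR's quasi-likelihood test and Benjamini-Hochberg adjustment over all genes of a class. A low-count filter left 34 of 63 pairs of a member and a class. In NS-I/R against NS-Sham hearts, 13 of the 34 passed an adjusted p of 0.05, 8 higher and 5 lower, which is 38.2%, beside 33.4% of all gene and class pairs tested. In Enpa-I/R against NS-I/R hearts, 9 passed, 5 higher and 4 lower, which is 26.5%, beside 8.21%. All 4 lower pairs were C7, in fibroblast-like, endothelial-like, cardiomyocyte-like and pericyte-like nuclei. The 5 higher were C1qa, C1qb and C1qc in macrophage-like nuclei, C1qa in cardiomyocyte-like nuclei and C3 in fibroblast-like nuclei. The 26.5% thus counts some genes more than once, and whether it exceeds the background was not tested. In Enpa-I/R against NS-Sham hearts, 5 passed, 4 higher and 1 lower, which is 14.7%, beside 13.2%. The first and last shares lay near the background. For Enpa-I/R against NS-Sham no member was called of the 8 tested in cardiomyocyte-like nuclei, where 18.1% of genes were. Nor was any of the 2 tested in pericyte-like nuclei or the 1 in lymphatic endothelial-like nuclei, where 5.32% and 1.34% of genes were. The count of 9 depended on single libraries: it was 15 without NS-I/R replicate 3, 2 without NS-I/R replicate 2 or either of Enpa-I/R replicates 1 and 2, and 4 without NS-I/R replicate 1 or Enpa-I/R replicate 3. The count of 5 was 3 when NS-Sham replicate 1 or 3 was left out, and 2 when NS-Sham replicate 2 or either of Enpa-I/R replicates 1 and 2 was. The contrasts share libraries, so the return of a value under enpatoran is not independent of its change after I/R.

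**Figure D2:**
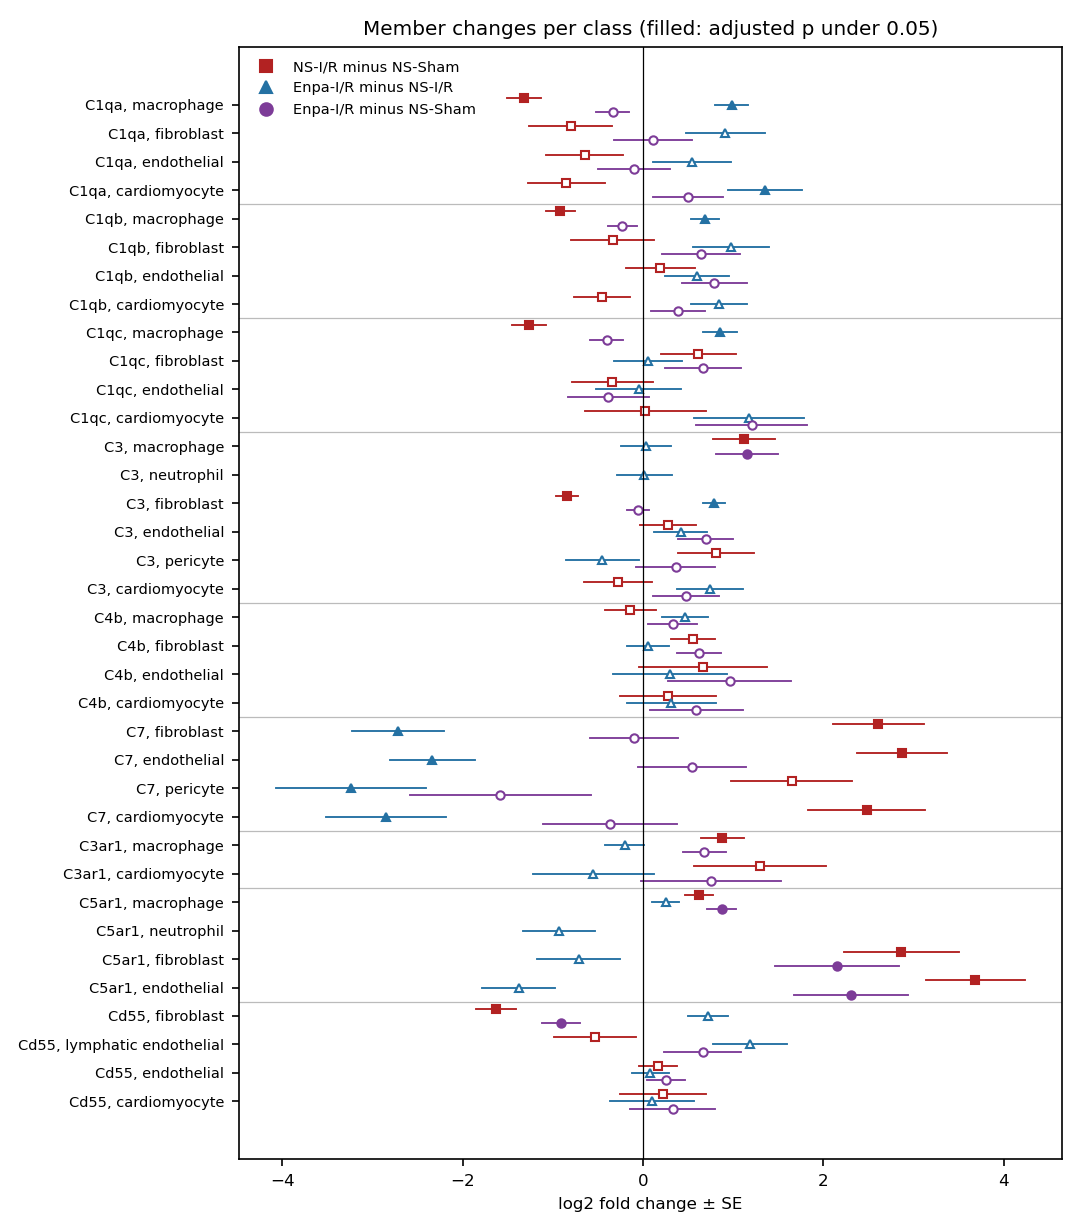
log2 fold change of each tested member and class (y axis) in the 3 contrasts, with bars of 1 SE; filled symbols passed an adjusted p of 0.05 over all genes of the class. In fibroblast-like nuclei C7 lies at 2.61 for I/R against sham and at -2.71 for enpatoran against saline, and in macrophage-like nuclei the 3 C1q genes lie below 0 in the first and above 0 in the second.

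The C1q subunit genes were lower in macrophage-like nuclei after I/R with saline and higher again with enpatoran. C1qa, which encodes the A chain, stood at 454, 417 and 443 CPM in the NS-Sham libraries, at 180, 120 and 225 in NS-I/R and at 343, 366 and 331 in Enpa-I/R. The 3 groups did not overlap. C1qa fell by 1.32 on the log2 scale after I/R (SE 0.19, n = 3 libraries a group, edgeR adjusted p = 7.0e-05), and rose by 0.98 (SE 0.18, edgeR adjusted p = 0.0060) in Enpa-I/R against NS-I/R hearts. Of all genes tested in this class, 34.9% and 6.24% passed in those contrasts.

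C1qb, the B chain gene, read 391.5, 422 and 331 CPM in the NS-Sham libraries, 245, 176 and 190 in those of NS-I/R and 346, 337 and 301 in those of Enpa-I/R. The NS-I/R libraries were the lowest, and those of the other groups overlapped. Its log2 changes were -0.91 (SE 0.16, edgeR adjusted p = 0.00041) after I/R and 0.69 (SE 0.16, edgeR adjusted p = 0.018) with enpatoran against saline. C1qc, the C chain gene, read 349, 271 and 276 CPM, then 129, 90.9 and 153, then 228, 245 and 204 in the same order of groups, with no overlap. It changed by -1.26 (SE 0.19, edgeR adjusted p = 0.00012) and 0.86 (SE 0.19, edgeR adjusted p = 0.013). The rises of C1qb and C1qc with enpatoran missed the threshold without NS-I/R replicate 2 or without Enpa-I/R replicate 1 or 2, at adjusted p of 0.058 to 0.095. In Enpa-I/R against NS-Sham hearts, where 17.5% of the genes of the class passed, none of the 3 did, with log2 values of -0.33, -0.23 and -0.40.

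The share of macrophage-like nuclei with at least one C1qa UMI gave the same order. Thinned to 1000 UMIs a nucleus, it was 31.3% ± 2.49 (SD, n = 3) in NS-Sham, 12.99% ± 3.95 in the NS-I/R libraries and 25.1% ± 0.84 in those of Enpa-I/R, and unthinned it was 52.1%, 23.0% and 42.6%. The groups did not overlap, and the two-sided exact permutation p of each pair was 0.1, the smallest that 3 against 3 libraries allow. In cardiomyocyte-like nuclei, which should lack the gene, the thinned shares were 0.14%, 0.21% and 0.54%. C1qa was also called higher there in Enpa-I/R than NS-I/R hearts (log2 1.35, SE 0.41, edgeR adjusted p = 0.046; 18.7% of genes passed), at 3.78, 3.62 and 2.28 CPM against 0.64, 1.02 and 2.15. The 8 macrophage markers summed to 17.2 to 20.6, 29.1 to 36.8 and 23.8 to 45.6 CPM in cardiomyocyte-like nuclei of the 3 groups, and their part in this call was not tested. The call was lost when any library other than NS-I/R replicate 3 was left out, at adjusted p of up to 0.16.

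The macrophage-like class had 2 clusters with very different C1q. F13a1 and Mrc1 were among the 10 leading genes of both. Cluster 11, with Cd163 and Adgre1 also among its leading genes, held 92.9% ± 1.17 of the macrophage-like nuclei of NS-Sham libraries, 49.1% ± 5.55 in the NS-I/R libraries and 64.0% ± 1.42 in those of Enpa-I/R. Cluster 12, with Arg1, Tgfbi and Itgam among its leading genes, held the rest, 56, 719 and 409 nuclei. C1qa in cluster 11 was 482, 421 and 464 CPM in NS-Sham and 515, 494 and 466 CPM in Enpa-I/R libraries. In NS-I/R libraries it was 308, 217 and 467 CPM in cluster 11 and 30.7, 22.6 and 64.5 CPM in cluster 12. Within cluster 11 the changes after I/R were smaller and missed the threshold: -0.57 for C1qa (edgeR adjusted p = 0.066), -0.29 for C1qb (0.22) and -0.59 for C1qc (0.079). With enpatoran against saline they were 0.61, 0.40 and 0.58 in cluster 11, with adjusted p of 0.14, 0.21 and 0.19. The share of each cluster moved with the class-wide C1q level, and beyond these within-cluster values its part in the result was not tested.

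**Figure D3:**
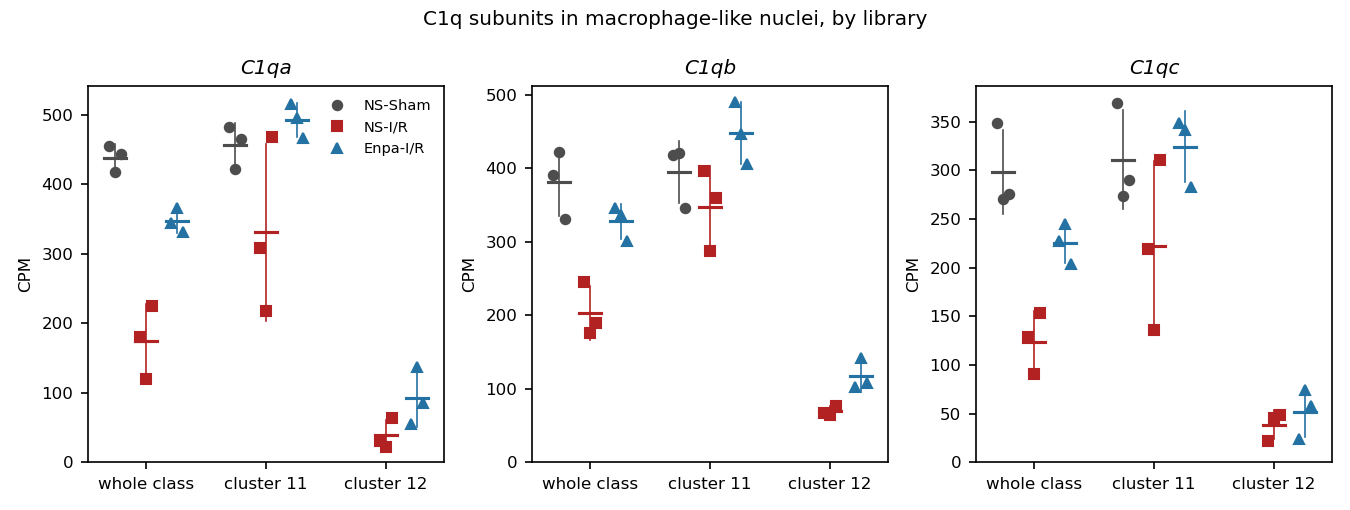
CPM of C1qa, C1qb and C1qc in the whole macrophage-like class and in its clusters 11 and 12; each point is a library, the horizontal line the mean and the vertical line 1 SD, and groups with a library under 25 nuclei in the cluster are left out (NS-Sham in cluster 12). NS-I/R points lie lowest in the whole class, overlap more with the others in cluster 11, and lie with the Enpa-I/R points under 150 CPM in cluster 12.

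C3, the central component, moved in opposite directions in fibroblast-like and macrophage-like nuclei after I/R. In fibroblast-like nuclei it read 149, 139 and 154 CPM in the NS-Sham libraries, 67.5, 85.9 and 92.1 in those of NS-I/R and 146, 139 and 140 in those of Enpa-I/R. The NS-I/R libraries lay below all others, and those of the other groups overlapped. C3 fell by 0.84 on the log2 scale after I/R (SE 0.13, edgeR adjusted p = 0.00025) and rose by 0.79 with enpatoran against saline (SE 0.12, edgeR adjusted p = 0.013), with 46.4% and 9.40% of all fibroblast-like genes called. Enpa-I/R differed from NS-Sham by -0.05 (SE 0.12, edgeR adjusted p = 0.81). Without any of the 3 Enpa-I/R libraries the rise kept a value of 0.77 to 0.81 at adjusted p of 0.059 to 0.061.

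In macrophage-like nuclei C3 was low, at 29.7, 11.9 and 7.95 CPM in the NS-Sham libraries, 40.5, 34.4 and 35.0 in those of NS-I/R and 36.8, 40.4 and 35.1 in those of Enpa-I/R. NS-Sham replicate 1 lay apart from the other NS-Sham libraries and below all I/R libraries. The rise after I/R was 1.12 (SE 0.34, edgeR adjusted p = 0.019), and that of Enpa-I/R over NS-Sham was 1.16 (SE 0.34, edgeR adjusted p = 0.029). Without NS-Sham replicate 2 these were 0.82 and 0.87, at adjusted p of 0.13 and 0.17, and without NS-Sham replicate 1 they were 1.77 and 1.82. Neither passed when NS-Sham replicate 3 was left out, the rise after I/R also missed the threshold without NS-I/R replicate 1 (0.051), and that of Enpa-I/R over NS-Sham without any of the Enpa-I/R libraries (0.053 to 0.088). The difference between the 2 classes was itself called after I/R, at -2.06 for fibroblast-like minus macrophage-like (SE 0.33, edgeR adjusted p = 0.00016; 13.6% of genes passed this test). Within cluster 11 the macrophage value was -0.53 (edgeR adjusted p = 0.49), and C3 in NS-I/R libraries was 14.4, 7.68 and 13.7 CPM there against 68.5, 60.2 and 49.0 in cluster 12. Neutrophil markers summed to 61.5 to 116 CPM in NS-Sham macrophage-like nuclei, with S100a8 and Retnlg at 0, to 246 to 738 in NS-I/R and 186 to 228 in Enpa-I/R, all 7 being present. Their part in the C3 result was not tested.

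Neutrophil-like nuclei had C3 at 180, 217 and 144 CPM in the NS-I/R libraries and 225, 191 and 91.0 CPM in those of Enpa-I/R, which overlapped (log2 0.02, SE 0.31, edgeR adjusted p = 0.99). The highest level was in mesothelial-like nuclei, the cells that cover the heart. They read 935, 875 and 340 CPM in the NS-Sham libraries, 620, 564 and 1679 in those of NS-I/R and 1376, 1475 and 1826 in those of Enpa-I/R. With 79, 77 and 53 nuclei a group this class was not tested. NS-Sham and NS-I/R overlapped there, and all Enpa-I/R libraries lay above NS-Sham.

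Fibroblast-like nuclei were not one population for C3. Cluster 8, led by Abca8a and Pcdh9, held 1878, 111 and 449 nuclei in the 3 groups, and cluster 18, led by Tnc and Adam12, genes of activated fibroblasts, held 7, 1359 and 855. C3 in NS-I/R libraries was 100, 137 and 203 CPM in cluster 9 and 40.4, 47.4 and 44.1 in cluster 18. Within cluster 9 the change after I/R was -0.30 (edgeR adjusted p = 0.43) and within cluster 17 it was 0.16 (0.84). With enpatoran against saline C3 read 0.74, 0.73 and 0.83 higher within clusters 9, 17 and 18, at adjusted p of 0.11, 0.38 and 0.064. Clusters 8 and 18 had libraries under 25 nuclei and could not be compared after I/R. The class-wide fall accompanied a change in which clusters made up the class, and the part of that change in the fall was not tested. The class-wide rise stood at a like size within each of clusters 9, 17 and 18 without passing the test in any.

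C4b, the other deposited component, passed no test in any of the 4 classes where it was tested. Reads of C4b and its near-identical neighbour C4a may have been split or lost by the authors' counting, so its level is uncertain. In fibroblast-like nuclei it read 22.6, 23.9 and 26.3 CPM in the NS-Sham libraries, 38.4, 32.2 and 36.3 in those of NS-I/R and 52.6, 34.5 and 23.5 in those of Enpa-I/R. The NS-I/R libraries lay above NS-Sham (log2 0.56, SE 0.25, edgeR adjusted p = 0.082), and the Enpa-I/R libraries spanned both. In macrophage-like nuclei all groups overlapped, with log2 changes of -0.14, 0.47 and 0.33 in the 3 contrasts. Adipocyte-like nuclei had the highest level, 404, 262 and 311 CPM in NS-I/R libraries, but from 33 nuclei. They were 0.042%, 0.54% and 0.055% of the nuclei of NS-I/R replicates 1, 2 and 3, so most came from replicate 2. Schwann-like nuclei, the glia of nerve fibres, had 100.6, 260 and 213 CPM in the NS-Sham libraries, 96.1, 176 and 160 in those of NS-I/R and 215, 112 and 46.2 in those of Enpa-I/R, overlapping throughout. Among fibroblast clusters, cluster 17, led by Kcnma1 and Dkk3, was high, at 184, 115 and 85.3 CPM in NS-I/R libraries, and cluster 18 was low, at 6.64, 5.92 and 10.7 CPM.

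C7, the terminal-complex subunit, was higher in fibroblast-like nuclei after I/R with saline, and with enpatoran its levels overlapped those of sham hearts. It read 208, 267 and 129 CPM in the NS-Sham libraries, 1846, 1544 and 339 in those of NS-I/R and 229, 221 and 117 in those of Enpa-I/R. All NS-I/R libraries lay above all others, but NS-I/R replicate 3 was far below its own group. C7 rose by 2.61 on the log2 scale after I/R, which is 6.11-fold (SE 0.51, edgeR adjusted p = 0.0015), and fell by 2.71 with enpatoran against saline (SE 0.51, edgeR adjusted p = 0.016). Enpa-I/R and NS-Sham overlapped (log2 -0.10, SE 0.49, edgeR adjusted p = 0.91). The rise after I/R kept its call whichever library was left out, with values of 2.21 to 3.04. The fall with enpatoran ran from -3.15 to -2.31 and missed the threshold, at adjusted p of 0.057 to 0.079, without NS-I/R replicate 1 or 2 or any of the Enpa-I/R libraries. It was also lost with only the 6 libraries of the contrast in the fit, at adjusted p = 0.055.

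C7 was concentrated in cluster 9, of which it was the leading gene by fold, with Gfpt2 and Scara5 also among the first 10. There it read 301, 410 and 176 CPM in the NS-Sham libraries, 3445, 2824 and 977 in those of NS-I/R and 407, 578 and 217 in those of Enpa-I/R. Within the cluster the log2 changes were 2.92 after I/R (SE 0.42, edgeR adjusted p = 0.00046) and -2.57 with enpatoran (SE 0.41, edgeR adjusted p = 0.016). Cluster 9 also grew, from 23.7% ± 2.62 (SD, n = 3) of fibroblast-like nuclei in NS-Sham libraries to 46.0% ± 9.76 in the NS-I/R libraries and 40.7% ± 5.68 in those of Enpa-I/R, where C7 was low. In cluster 17 the change after I/R was 1.98 (edgeR adjusted p = 0.046) and that with enpatoran -1.43 (0.32). Cluster 18 read 471, 496 and 28.6 CPM in the NS-I/R libraries and 103, 33.3 and 7.62 in those of Enpa-I/R, with a log2 value of -2.77 (edgeR adjusted p = 0.12). NS-I/R replicate 3 was the lowest of its group in clusters 9, 17 and 18. It also had 8.26% of its fibroblast-like nuclei in cluster 8, against 0.61% and 0.65% in the other NS-I/R libraries.

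The thinned share of fibroblast-like nuclei with a C7 UMI was 8.97% ± 2.11 in the NS-Sham libraries, 27.1% ± 11.7 in those of NS-I/R and 7.92% ± 2.56 in those of Enpa-I/R (SD, n = 3; two-sided exact permutation p = 0.1 for both contrasts with NS-I/R). Unthinned, NS-I/R and NS-Sham overlapped, at 34.9% ± 12.9 and 16.4% ± 4.32 (exact permutation p = 0.2).

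Low C7 counts elsewhere moved the same way. In endothelial-like nuclei C7 read 2.01, 3.78 and 0.47 CPM in the NS-Sham libraries, 22.7, 22.2 and 9.35 in those of NS-I/R and 3.52, 1.88 and 5.27 in those of Enpa-I/R, with log2 changes of 2.88 (edgeR adjusted p = 0.00089) and -2.33 (0.017), where 34.2% and 6.12% of genes were called. In cardiomyocyte-like nuclei the changes were 2.48 (0.011) and -2.85 (0.022), where 45.3% of genes were called after I/R, and in pericyte-like nuclei 1.65 (0.084) and -3.24 (0.032), where 24.1% and 5.75% were called. These classes had 0.040, 0.094 and 0.056 C7 UMIs a nucleus in NS-I/R hearts, against 4.73 in fibroblast-like nuclei. The 7 fibroblast markers summed to 176 to 220, 185 to 255 and 175 to 264 CPM in endothelial-like nuclei of the NS-Sham, the NS-I/R and the Enpa-I/R group. In cardiomyocyte-like nuclei they summed to 33.7 to 55.8, 31.3 to 48.3 and 45.7 to 74.8 CPM, and in pericyte-like nuclei to 245 to 297, 170 to 304 and 228 to 288. C7 itself was higher in fibroblast-like nuclei of NS-I/R hearts, and the part of fibroblast RNA in these values was not tested. The enpatoran calls were lost when NS-I/R replicate 1 or 2 or any Enpa-I/R library was left out, at adjusted p of up to 0.077 in endothelial-like, 0.084 in cardiomyocyte-like and 0.18 in pericyte-like nuclei, and in pericyte-like nuclei also when NS-Sham replicate 3 was, at 0.051. One Schwann-like library stood out, NS-I/R replicate 1, with 1201 CPM against 25.2 and 20.0 in its group.

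Cd55, the membrane regulator, was lower in fibroblast-like nuclei of both I/R groups. It read 154, 127 and 141 CPM in the NS-Sham libraries, 51.1, 27.6 and 57.3 in those of NS-I/R and 65.9, 80.3 and 78.7 in those of Enpa-I/R, and no groups overlapped. It fell by 1.63 on the log2 scale after I/R, to a level 3.09-fold lower (SE 0.22, edgeR adjusted p = 0.00012). Enpa-I/R stayed below NS-Sham by 0.91 (log2 -0.91, SE 0.21, edgeR adjusted p = 0.0094; 23.9% of fibroblast-like genes passed), a call lost without Enpa-I/R replicate 1 at adjusted p = 0.051. The value of Enpa-I/R minus NS-I/R was 0.72 (SE 0.22, edgeR adjusted p = 0.058), just outside the threshold. Within cluster 9, where Cd55 was highest among fibroblasts, it read 315, 297 and 282 CPM in NS-Sham and 76.8, 40.1 and 159 in NS-I/R libraries, a fall of 1.80 (SE 0.33, edgeR adjusted p = 0.0028). Over all nuclei Cd55 fell by 0.92 after I/R (SE 0.19, edgeR adjusted p = 0.0030), where 47.8% of all genes were called. An antisense gene, Gm16083, overlaps Cd55 and is in the matrices, and whether counting used the strand is not given in the sources used here.

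Cd55 was also measured in endothelial, B cell-like and mesothelial-like nuclei. In lymphatic endothelial-like nuclei it read 91.7, 60.6 and 60.4 CPM in the NS-Sham libraries, 23.4, 37.3 and 81.1 in those of NS-I/R and 70.7, 121 and 148 in those of Enpa-I/R, with log2 values of -0.53 after I/R (edgeR adjusted p = 0.49), 1.19 between the I/R groups (0.16; 1.06% of genes passed) and 0.66 for Enpa-I/R minus NS-Sham (0.56). The difference between fibroblast-like and lymphatic endothelial-like nuclei was called for Enpa-I/R minus NS-Sham, at -1.61 (SE 0.40, edgeR adjusted p = 0.028; 0.875% of genes passed), but not after I/R with saline, at -1.14 (0.18). In endothelial-like nuclei all groups overlapped, at 20.9 to 22.4, 19.5 to 32.7 and 21.8 to 29.7 CPM. B cell-like nuclei had the highest level, 481, 590 and 466 CPM in the NS-Sham libraries, 280, 143 and 119 in those of NS-I/R and 453, 267 and 259 in those of Enpa-I/R. These came from 105, 89 and 62 nuclei and were not tested. All NS-I/R libraries lay below NS-Sham there too.

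**Figure D4:**
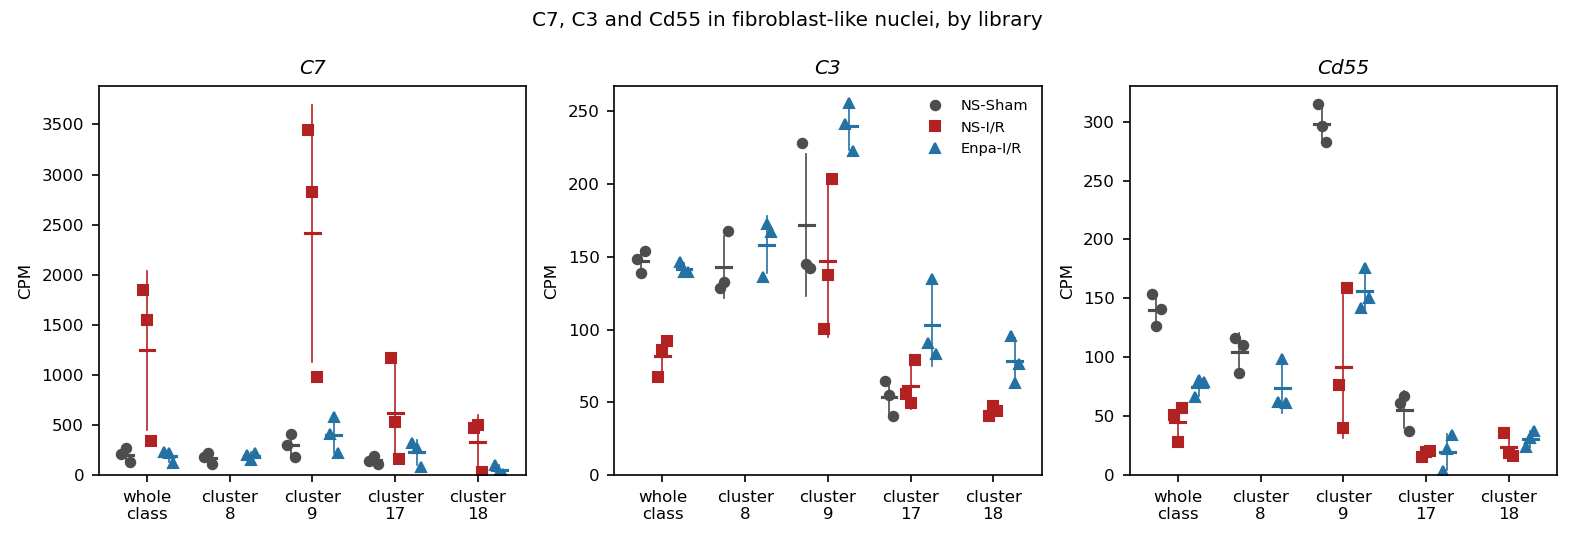
CPM of C7, C3 and Cd55 in the whole fibroblast-like class and in its clusters 8, 9, 17 and 18; each point is a library, horizontal lines are means and vertical lines 1 SD cut at 0, and groups with a library under 25 nuclei in the cluster are left out. C7 is high in NS-I/R libraries in cluster 9, with one library, replicate 3, near 977 CPM, while Cd55 is highest in NS-Sham libraries of the same cluster.

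The anaphylatoxin receptors, which detect the fragments released when C3 and C5 are cleaved, were higher in macrophage-like nuclei after I/R. C3ar1 read 79.3, 82.0 and 58.3 CPM in the NS-Sham libraries, 158, 154 and 103 in those of NS-I/R and 136, 139 and 82.6 in those of Enpa-I/R. Replicate 3 was the lowest in each group. It rose by 0.88 after I/R (SE 0.24, edgeR adjusted p = 0.0096). Enpa-I/R overlapped NS-I/R (log2 -0.20, SE 0.22, edgeR adjusted p = 0.64) and lay above NS-Sham without passing the test (log2 0.68, edgeR adjusted p = 0.062). C5ar1 read 100.8, 86.0 and 98.1 CPM in the NS-Sham libraries, 136, 140 and 158 in those of NS-I/R and 169, 183 and 165 in those of Enpa-I/R, with no overlap between groups. It rose by 0.62 after I/R (SE 0.16, edgeR adjusted p = 0.0069) and was 0.87 higher in Enpa-I/R than in NS-Sham libraries (SE 0.16, edgeR adjusted p = 0.0014). Both calls held whichever library was left out. The difference between the I/R groups was 0.25 (SE 0.15, edgeR adjusted p = 0.33). C5ar1 and C3 were the members called higher than NS-Sham in macrophage-like nuclei of both I/R groups.

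Within cluster 11, C3ar1 was 0.45 higher after I/R (edgeR adjusted p = 0.24) and C5ar1 0.45 higher (0.11), while C5ar1 was 0.64 higher in Enpa-I/R than in NS-Sham libraries (SE 0.19, edgeR adjusted p = 0.046). C5ar1 read 122, 157 and 158 CPM in cluster 11 and 148, 120 and 159 CPM in cluster 12 of NS-I/R libraries, which overlapped, and C3ar1 read 128, 117 and 90.0 CPM in cluster 11 and 186, 188 and 112 CPM in cluster 12. The thinned share of macrophage-like nuclei with a C5ar1 UMI was 8.39% ± 1.40 in the NS-Sham libraries, 13.2% ± 1.38 in those of NS-I/R and 13.6% ± 0.79 in those of Enpa-I/R (SD, n = 3; two-sided exact permutation p = 0.1 for each I/R group against NS-Sham).

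In neutrophil-like nuclei C5ar1 read 194, 211 and 85.3 CPM in the NS-I/R libraries and 98.6, 78.3 and 72.8 in those of Enpa-I/R. NS-I/R replicate 3 overlapped the Enpa-I/R group, and the log2 value of -0.93 (SE 0.40, edgeR adjusted p = 0.22) did not pass, where 2.04% of genes did. That library also had the highest sum of endothelial markers in these nuclei, 4166 CPM, and the part of this in its value was not tested. C3ar1 was low there, at 17.5, 9.77 and 14.4 CPM in NS-I/R libraries, from 31 UMIs, and with 1 UMI in all Enpa-I/R libraries it was not tested. Over all nuclei, C5ar1 was 4.16-fold higher after I/R (log2 2.06, SE 0.23, edgeR adjusted p = 8.8e-05) and C3ar1 3.02-fold higher (log2 1.60, SE 0.35, edgeR adjusted p = 0.0040). Against NS-Sham, Enpa-I/R hearts read 1.65 higher for C5ar1 (edgeR adjusted p = 0.0010) and 1.36 higher for C3ar1 (0.021), where 21.1% of genes passed. These whole-heart values moved with the number of neutrophil-like and macrophage-like nuclei, 6 and 823 in NS-Sham against 1352 and 1403 in NS-I/R hearts.

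C5ar1 was also called in classes where it was scarce. In endothelial-like nuclei it had 5 UMIs in all NS-Sham libraries, 64 in the NS-I/R libraries and 25 in those of Enpa-I/R, with log2 changes of 3.69 after I/R (SE 0.55, edgeR adjusted p = 0.00031) and 2.31 for Enpa-I/R minus NS-Sham (SE 0.63, edgeR adjusted p = 0.034; 10.8% of genes passed). In fibroblast-like nuclei the UMIs were 4, 44 and 23, and the changes 2.87 (SE 0.64, edgeR adjusted p = 0.0033) and 2.15 (SE 0.69, edgeR adjusted p = 0.040). The Enpa-I/R minus NS-Sham calls depended on single libraries. In endothelial-like nuclei the call was lost when any NS-Sham library or Enpa-I/R replicate 2 or 3 was left out, with values of 1.95 to 3.42 and adjusted p of up to 0.12. In fibroblast-like nuclei it was lost when NS-Sham replicate 1 or 2 or any Enpa-I/R library was, with values of 1.70 to 2.82 and adjusted p of up to 0.16. Without NS-I/R replicate 2 or 3 that fit gave no value for the gene. The 7 neutrophil markers rose beside them, from 11.7 to 15.03 CPM in summed level in NS-Sham endothelial-like nuclei to 138 to 244 in NS-I/R and 56.8 to 72.5 in Enpa-I/R. In fibroblast-like nuclei they were 2.21 to 3.43, 55.3 to 157 and 26.1 to 33.3 CPM. Their part in these C5ar1 results was not tested. The rise in endothelial-like nuclei exceeded that in macrophage-like nuclei by 2.95 on the log2 scale (macrophage-like minus endothelial-like -2.95, SE 0.53, edgeR adjusted p = 0.00064; 12.8% of genes passed).

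**Figure D5:**
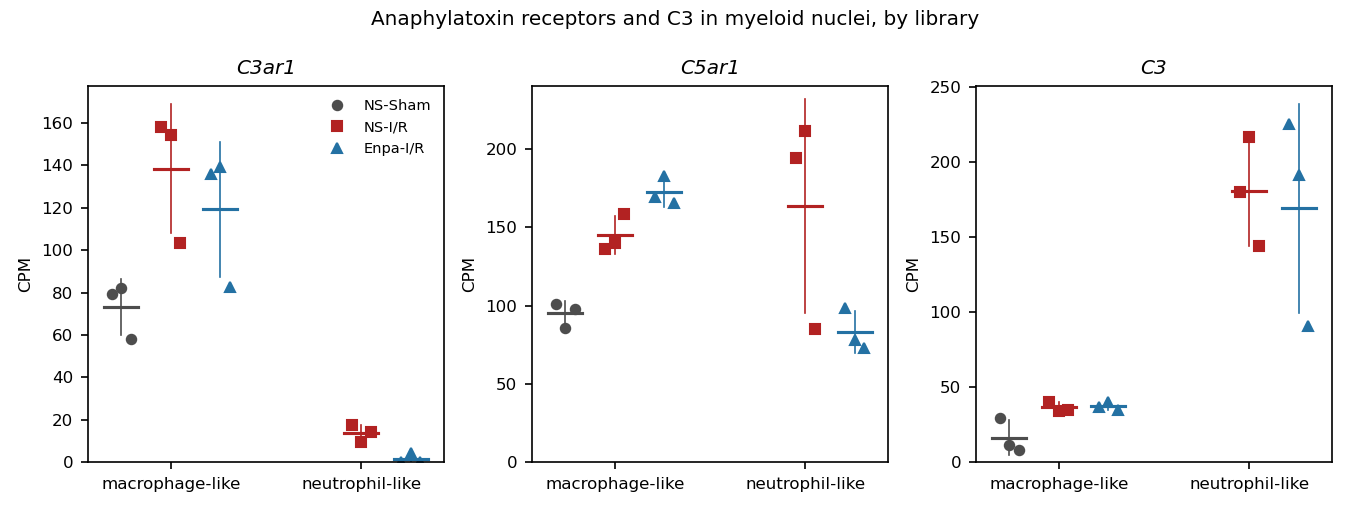
CPM of C3ar1, C5ar1 and C3 in macrophage-like nuclei of the 3 groups and in neutrophil-like nuclei of the 2 I/R groups; points are libraries, horizontal lines means and vertical lines 1 SD cut at 0. In macrophage-like nuclei all I/R libraries lie above NS-Sham for each of the 3 genes, and in neutrophil-like nuclei one NS-I/R library, replicate 3, lies within the range of the Enpa-I/R group for C5ar1.

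For each member the change was also compared between the 2 tested classes where it was highest, in a fit with the library as a block, and 5 of these 27 differences were called. Over all genes, 0.188% to 13.6% passed this test, depending on the pair of classes and the contrast. Macrophage-like and smooth muscle-like C1qa, C1qb and C1qc did not differ by the test in any contrast, with values of 0.64, 1.19 and 0.50 after I/R at edgeR adjusted p of 0.70, 0.55 and 0.82, where 6.62% of genes passed. In the other contrasts of that pair 0.188% and 1.52% of genes passed. Smooth muscle-like nuclei held 14, 4 and 11 C1qa UMIs in the 3 groups. For C1qb they held 8, 2 and 9, and for C1qc 9, 3 and 10. No member passed the low-count filter when smooth muscle-like nuclei were tested alone. With so few UMIs the test could hardly find a difference, so a like change of C1q in both classes is not shown. For C3, fibroblast-like minus macrophage-like was 0.76 between the I/R groups (edgeR adjusted p = 0.17; 2.18% of genes passed) and -1.30 for Enpa-I/R minus NS-Sham (0.024; 5.49%). C4b in the same classes gave -0.63, 0.43 and -0.20 for macrophage-like minus fibroblast-like, none called. C7 in fibroblast-like minus lymphatic endothelial-like nuclei gave -1.55 (SE 1.36) after I/R and 1.60 (SE 1.34) between the I/R groups, none called, where 2.96% and 0.387% of genes passed. Lymphatic endothelial-like C7 rests on 1, 29 and 1 UMIs in the 3 groups, too few to show a like change. C3ar1 in macrophage-like minus pericyte-like nuclei gave 0.52, -0.66 and -0.15, none called, where 10.0%, 1.5% and 3.07% passed. Pericyte-like C3ar1 rests on 5, 6 and 8 UMIs in the 3 groups, which is likewise too few. C5ar1 in macrophage-like minus endothelial-like nuclei gave 1.63 between the I/R groups (SE 0.37, edgeR adjusted p = 0.023; 1.94%) and -1.32 for Enpa-I/R minus NS-Sham (0.27; 5.01%).

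The rest of the pathway was read from a list of 44 further complement genes. In macrophage-like nuclei, 15 were tested after I/R, of which 3 were higher and 4 lower, where 34.9% of all genes were called, with a median log2 change of 0.15 beside 0.03 over all genes of the class. Itgam, the alpha chain of complement receptor 3, rose from 186 to 1405 CPM on average (log2 2.93, SE 0.20, edgeR adjusted p = 5.9e-08), and Itgb2, its beta chain, by 1.60. Both also mark neutrophils and infiltrating macrophages. Colec12, a scavenger collectin, fell by 1.86, Fcna, a ficolin, by 1.77 and Vsig4, a receptor for C3 fragments on resident macrophages, by 1.12. With enpatoran against saline only Itgam was called, at -1.01 (SE 0.18, edgeR adjusted p = 0.0046; 6.24% of all genes passed).

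In fibroblast-like nuclei, 19 of the 44 were tested after I/R, of which 5 were higher and 6 lower, where 46.4% of all genes were called, with a median of 0.11 beside -0.0017. Masp1, a protease of the lectin pathway, rose by 3.74 on the log2 scale, from 2.65 to 35.0 CPM (SE 0.64, edgeR adjusted p = 0.00062), and fell by 2.75 with enpatoran against saline (SE 0.55, edgeR adjusted p = 0.019). The classical-pathway protease genes C1ra and C1s1 fell after I/R by 1.08 and 0.78, C1ra from 31.5 to 14.8 CPM and C1s1 from 65.6 to 38.4, and Cr1l, the gene of the mouse convertase regulator Crry, fell by 0.67, from 155 to 97.2 CPM. C1s1 was 0.61 higher with enpatoran than with saline (edgeR adjusted p = 0.034), making it, Masp1 and Itgam the 3 called of 19 in that contrast, where 9.40% of all genes were. Enpa-I/R against NS-Sham had 3 higher and 5 lower, where 23.9% of all genes were called, among them C1ra at -0.59, Colec12 at -0.58, Cd46, another membrane regulator, at -0.57, and Clu, an inhibitor of the terminal complex, at 0.98.

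In pericyte-like nuclei, 12 of the 44 were tested after I/R, of which 3 were higher and 4 lower, where 24.1% of all genes were called, with a median of -0.0047 beside 0.02. Serping1, the C1 inhibitor, rose by 0.99, while Colec11, a collectin of the lectin pathway, fell by 1.58, Vtn, a plasma protein that binds the terminal complex, by 1.46 and C1s1 by 0.93. In smooth muscle-like nuclei, 2 of 10 were higher and 0 lower, where 7.15% of all genes were called, Itgam among them at 4.78 (SE 0.79, edgeR adjusted p = 0.0031). The 7 neutrophil markers summed to 0 to 3.62 CPM in smooth muscle-like nuclei of NS-Sham libraries, with 6 of them at 0, and to 60.7 to 245 CPM in those of NS-I/R, with none at 0, and their part in the Itgam value was not tested. Of 17 genes tested in endothelial-like nuclei, 6 were higher and 4 lower, where 34.2% of all genes were called, Clu by 1.23, Cd59a, the inhibitor of membrane attack, by 0.67, Cd46 by -0.61 and Cr1l by -0.48. In cardiomyocyte-like nuclei, 4 of 16 were higher and 2 lower, where 45.3% of all genes were called, with Clu at 0.70, Cd59a at 0.58 and Cr1l at -0.50. Susd4, an inhibitor of the convertases, was the one gene of 7 called in lymphatic endothelial-like nuclei, where 13.8% of all genes were, falling from 170 to 64.3 CPM (log2 -1.37, edgeR adjusted p = 0.0083).

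Over the 63 sums of a class and a library, each member's level was compared with that of every other gene by Pearson r of log2(CPM + 1). These points share libraries and differ in depth, so the values describe and are not tested. C1qa was closest to C1qb (0.92), Epsti1 (0.92) and C1qc (0.92), C1qb to Susd3 (0.94), Nlrp1a (0.94) and Clec4a3 (0.93), and C1qc to Ptprc (0.94), C1qa (0.92) and Cd300c2 (0.92). C3ar1 was closest to Ms4a4a (0.94), Mir142hg (0.94) and Psd4 (0.93), and C5ar1 to Snx20 (0.94), Tbxas1 (0.94) and Fcgr3 (0.94). C7 was closest to Aspg (0.90), Svep1 (0.88) and Uap1 (0.86), Cd55 to Nod1 (0.87), Tmem64 (0.86) and Thsd7a (0.86), C3 to Fndc3b (0.88), Cdk8 (0.84) and Mmp27 (0.83), and C4b to Adcy7 (0.90), Ptprj (0.83) and Ust (0.81). Between members, C3 had a value of 0.66 with C4b, 0.63 with C7, 0.59 with Cd55 and 0.23 with C1qa, and C4b had 0.61 with C1qa.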

How the data were processed

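The deposited matrices hold raw counts of UMIs per gene and nucleus. Per the file headers they were made by the authors with Cell Ranger 8.0.0, while the submitters' processing notes name Cell Ranger 6.1.1, Seurat, GRCh38 and GRCm39 without a role. Intron and strand settings are not given in the sources used here. Barcodes with at least 500 genes and at most 5% mitochondrial UMIs were kept, and the highest Scrublet scores were removed at 0.8% per 1000 barcodes, because Scrublet's own threshold marked 0 to 3 in 7 libraries. Nuclei were clustered with scanpy 1.11.5 (2000 variable genes without the complement genes, 30 components, Leiden resolution 1), and clusters were named from at least 3 markers. UMI sums per library and class went into edgeR 4.0.16: filterByExpr, then TMM scaling, then the quasi-likelihood test at a Benjamini-Hochberg threshold of 0.05, all 9 libraries in a fit, and the code was tested on simulated data. There, 200 genes a class were given a fixed change in NS-I/R, of 1 on the log2 scale up or down. Of these, 7.5% were called in smooth muscle-like, 28% in lymphatic endothelial-like and 40% in cardiomyocyte-like nuclei. The share was 40.5% in macrophage-like, 47% in pericyte-like, 58% in fibroblast-like and 60% in endothelial-like nuclei. A change that did not pass is therefore not shown to be absent. Small classes and clusters have plain CPM. DESeq2 1.42.0, other filters, the replicate block, single clusters and leaving out each library were the alternatives. The members, lists and naming thresholds were chosen with earlier results of these data known. Genes named beside the members came from the complement list, or were the 3 with the highest Pearson r. Intervals and permutation tests on shares cover counting and library spread only. One gene of the complement list is counted but not reported by name here.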

Additional observations from a re-analysis of the deposited data

Results flagged for a closer look

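A change that differed between 2 cell classes, by a test of the difference itself over all genes (edgeR's quasi-likelihood test with Benjamini-Hochberg adjustment), was found for 5 of 27 member comparisons. Of all genes, 0.188% to 13.6% passed, depending on the pair of classes and the contrast. Several of the 27 rest on too few UMIs to find a difference, so the count is not a rate. C3 after I/R differed by -2.06 on the log2 scale between fibroblast-like and macrophage-like nuclei (edgeR adjusted p = 0.00016; 13.6% of genes passed). For Enpa-I/R minus NS-Sham the same difference was -1.30 (SE 0.34, edgeR adjusted p = 0.024; 5.49% of genes passed). That call was lost when NS-Sham replicate 2, NS-Sham replicate 3, Enpa-I/R replicate 1 or Enpa-I/R replicate 2 was left out. Cd55 differed by -1.61 between fibroblast-like and lymphatic endothelial-like nuclei for Enpa-I/R minus NS-Sham (edgeR adjusted p = 0.028; 0.875% of genes passed). That call was lost when replicate 2 or 3 of either group was left out. C5ar1 differed between macrophage-like and endothelial-like nuclei by -2.95 after I/R (edgeR adjusted p = 0.00064; 12.8% of genes passed). For Enpa-I/R minus NS-I/R that difference was 1.63 (SE 0.37, edgeR adjusted p = 0.023; 1.94% of genes passed), and it was lost without replicate 1 of either group or replicate 2 of Enpa-I/R. Endothelial-like C5ar1 rests on 5, 64 and 25 UMIs in the 3 groups.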

How the results depend on the processing

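With 3 libraries a group, shares of nuclei could not go below an exact permutation p of 0.1, and counts of calls moved with single libraries. Member calls after I/R numbered 13, 20 without the low-count filter and 12 to 17 when one library was left out. For Enpa-I/R minus NS-I/R they numbered 9, 4 with only the 6 libraries of the contrast, and 2 to 15 when one was left out. For Enpa-I/R minus NS-Sham they numbered 5, 3 with at least 1000 genes a nucleus, and 2 to 6 when one was left out. In neutrophil-like nuclei they numbered 0, and 0 to 1 when one was left out. The class differences numbered 5, and 2 to 6 when one was left out. Same-numbered libraries had correlations of -0.20 to 0.07 and share only a number, and with the replicate block the counts were 14, 9, 4 and 0. The following reversed, and the cause was not tested. Within cluster 1, cardiomyocyte-like C1qa for Enpa-I/R minus NS-Sham was -0.32, and within cluster 11 macrophage-like C1qa was 0.041 and C1qb 0.10. Fibroblast-like C3 in that contrast was 0.0058 with a 20% mitochondrial limit and 0.12, 0.44 and 0.89 within clusters 8, 9 and 17, and C7 was 0.11, 0.35 and 0.54. After I/R, C3 was 0.16 within cluster 17 and, in macrophage-like nuclei, -0.53 within cluster 11. Macrophage-like C3 for Enpa-I/R minus NS-I/R was -0.24 with the 20% limit and -0.18 with at least 1000 genes. When one library was left out, values for Enpa-I/R minus NS-I/R that changed sign ran from -0.027 to 0.11 for macrophage-like C3, from -0.37 to 0.0047 for macrophage-like C3ar1 and from -0.66 to 0.028 for C3ar1 over all nuclei. For Enpa-I/R minus NS-Sham, C7 ran from -0.22 to 0.37 over all nuclei, from -0.74 to 0.22 in cardiomyocyte-like and from -0.31 to 0.17 in fibroblast-like nuclei. Of the main values that reversed, the changes of C3 after I/R in fibroblast-like and macrophage-like nuclei had been called.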
